A study of Homo sapiens with 6 samples.

Results

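The genes described here are 10 members of the BCL2 family, the proteins that decide whether the outer mitochondrial membrane is breached during apoptosis. They were taken by symbol from the gene column of the series' FPKM table, where 58735 rows are genes, and each of the 10 symbols named 1 row. RNA came from T24 cells, an established line from a human bladder urothelial carcinoma labelled wild type, grown with 10% serum. All 6 libraries are from day 2, with 3 control libraries from cells kept without TGF-β1 and 3 TGF-b1 libraries from cells given TGF-β1 at 10 ng/ml for 48 h (titled TGF-β treat). Nothing in the labels ties the replicates to separate cultures, and the p-values therefore reflect the spread among these samples alone, which may be technical.

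In this family, the pro-survival proteins BCL2, BCL-XL (gene BCL2L1) and MCL1 hold the effectors BAX and BAK (gene BAK1) in check. The BH3-only proteins BMF, BIM (gene BCL2L11), NOXA (gene PMAIP1), PUMA (gene BBC3) and BIK bind the pro-survival proteins, and some of them the effectors too, through a short helix and so promote pore formation by the effectors and release of cytochrome c, which starts the caspase cascade. TGF-β1, which signals through receptor kinases and SMAD transcription factors, is known to cause growth arrest or apoptosis in many epithelial cells and to raise transcription of BMF and BCL2L11 in some of them.

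Libraries held 20703945 to 23678772 fragments assigned to genes with a known length. FPKM is fragments scaled to exon length and library size. It allows only a rough comparison of levels between genes, as the length counts every annotated exon, used or not. The treatment was visible in 3 early TGF-β targets, all past the threshold defined below: PMEPA1, SMAD7 and SKIL stood at 4.85, 2.72 and 2.47 times the control mean. Of 11 urothelial and epithelial markers 3 had a mean of at least 1 FPKM (KRT7, KRT8 and KRT18), while KRT5, KRT19 and UPK3A were listed at 0 in every library. These markers summed to 469 to 636 FPKM in control libraries and to 406 to 438 FPKM in treated ones, and their part in the results was not tested. Summed markers of blood and immune cells reached at most 0.0945 FPKM, of endothelium 0.745 FPKM and of fibroblasts 0.175 FPKM. Libraries also differed in how level went with the GC content of the transcript. Relative to the mean of all libraries, the log2 level changed by 0.143 per 10 percentage points of GC in control 1 and in control 2, and by -0.130 to -0.0155 in control 3 and the 3 TGF-b1 libraries, so control 3 lay with the treated libraries in this respect.

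The design asks which of these transcripts TGF-β1 changes in T24 cells. Each gene that reached 1 FPKM in 3 or more libraries was tested with limma on log2(FPKM + 1), a scale that understates the change of low genes, and called at a Benjamini-Hochberg adjusted p under 0.05 over all 11363 genes tested. Of the 10 members 9 passed this filter, and BCL2 did not. BMF rose and no other member passed. That is 1 of 9 higher, where 1.14% of all genes tested were called higher, and 0 of 9 lower, where 1.29% were called lower (2.44% in either direction). At an unadjusted p under 0.05 there were 2 of 9, BMF and BCL2L1, against 25.1% of all genes, and limma's voom, run on the whole fragments recovered from FPKM and exon length, called 2, BMF higher, against 3.51% of all genes, and BCL2L1 lower, against 5.83% (9.33% in either direction). The same 2 members had groups that did not overlap, as did 27.1% of all genes tested, 14.6% higher and 12.5% lower. The median change of the 9 was -0.14 on the log2 scale, against 0.012 over all genes tested.

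**Figure D1:**
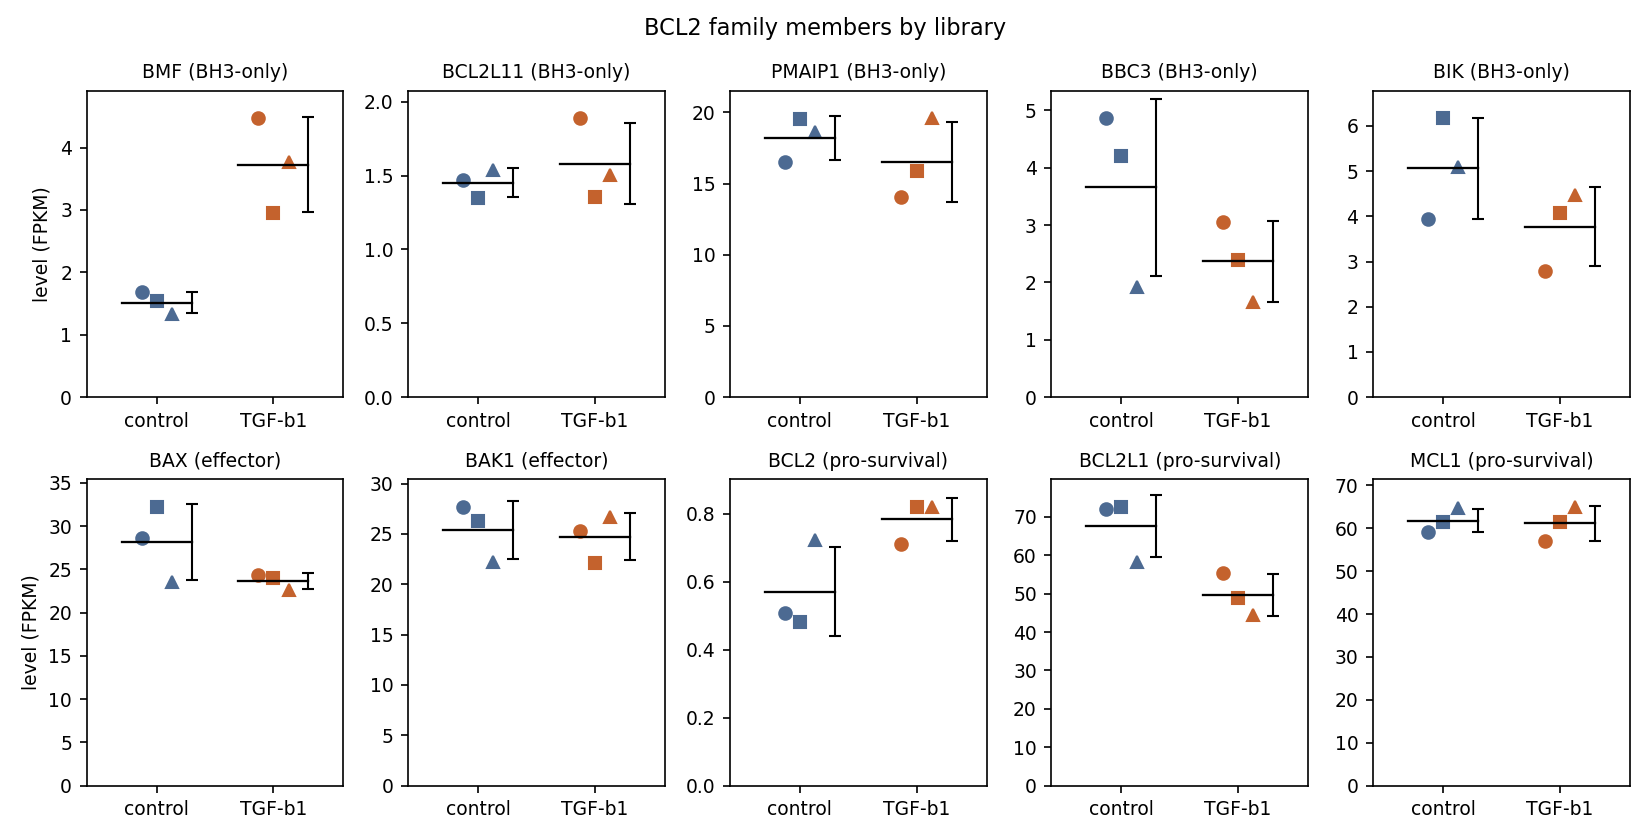
Level in FPKM (vertical axis, from 0) of each of the 10 members in the control (blue) and TGF-b1 (orange) libraries. Circles, squares and triangles are replicates 1, 2 and 3, horizontal lines are means and bars are SD (n = 3). BMF lies at 1.33 to 1.68 in control and 2.95 to 4.47 in TGF-b1 libraries, and only BMF and BCL2L1 have groups that do not overlap.

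BMF, a BH3-only protein held at the cytoskeleton by a dynein light chain in healthy cells, was the member that rose. Its level was 1.68, 1.53 and 1.33 FPKM in control 1 to 3 and 4.47, 2.95 and 3.76 FPKM in TGF-b1 1 to 3. Every TGF-b1 library was above every control library. These levels rest on 168 to 205 fragments in control and 385 to 521 in TGF-b1 libraries. The means were 1.52 ± 0.174 and 3.73 ± 0.761 FPKM (SD, n = 3), a ratio of 2.46. On the fitted scale the change was 0.90 (SE 0.13, 95% interval 0.62 to 1.18, limma adjusted p = 0.0035). In bulk RNA a larger share of cells with the transcript and more transcript per cell cannot be told apart. The call held whichever library was left out, with an adjusted p of 0.0017 to 0.013 and a change of 0.79 to 1.02. It also held once a trend on GC content and length was taken out of each library (change 0.99, adjusted p = 0.0019). With no filter on low genes, where 28285 genes were tested and 15 called, it did not (adjusted p = 0.13).

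BMF lies on the minus strand of chromosome 15 at 40087890 to 40108892 (GRCh38, GENCODE release 29). RefSeq gives it a pair of transcription starts, and the bases before each, up to the exons annotated in GENCODE, are shown because it is the member whose transcript rose and because SMAD proteins act at DNA. Capitals mark matches on either strand to CAGAC, the core of a SMAD-binding element (GTCTG on the other strand), to GGGCGG, a GC box (CCGCCC on the other strand), and to TGANTCA, an AP-1 site. The sequences are RefSeq's, on GRCh38.p14, 5′ to 3′ on the minus strand. The upper covers chr15:40108893-40109129 and the lower chr15:40106967-40107216.
BMF outer start: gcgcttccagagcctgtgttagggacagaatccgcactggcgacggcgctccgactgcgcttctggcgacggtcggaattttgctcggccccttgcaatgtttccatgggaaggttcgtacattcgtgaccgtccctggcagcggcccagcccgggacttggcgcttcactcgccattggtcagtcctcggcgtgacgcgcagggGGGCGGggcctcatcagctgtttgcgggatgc
BMF inner start: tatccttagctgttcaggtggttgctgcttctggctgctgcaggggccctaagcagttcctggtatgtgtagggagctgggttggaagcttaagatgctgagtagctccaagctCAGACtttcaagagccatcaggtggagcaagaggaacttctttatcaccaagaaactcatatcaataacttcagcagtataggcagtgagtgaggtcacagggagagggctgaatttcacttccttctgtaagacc
The outer window held 1 GC box and no CAGAC, the inner window 1 CAGAC and no GC box, and neither an AP-1 site. Among 35116 windows of 250 bases before RefSeq starts, 38.0% held CAGAC, 42.6% a GC box and 6.57% an AP-1 site, so such matches are common. Of the members, 8 of 10 were matched in this table; BIK and MCL1 were not. At least 1 CAGAC stood before a start of BAK1, PMAIP1, BBC3 and BCL2L1 as well, and none before BCL2L11, BCL2 or BAX. A gene table does not show which start was used in these cells.

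The remaining BH3-only genes did not pass the test. In the same annotation BCL2L11 lies on the plus strand of chromosome 2 at 111119378 to 111168447, PMAIP1 on the plus strand of chromosome 18 at 59899948 to 59904306, BIK on the plus strand of chromosome 22 at 43110748 to 43129712 and BBC3 on the minus strand of chromosome 19 at 47220822 to 47232766. BCL2L11, which encodes BIM, the family member closest to BMF in being tethered by a dynein light chain, was at 1.47, 1.35 and 1.54 FPKM in control and 1.89, 1.35 and 1.51 FPKM in TGF-b1 libraries. The highest value was in TGF-b1 1 and the groups overlapped. Its change was 0.070 (95% interval -0.17 to 0.31, limma adjusted p = 0.70), an interval that lies wholly below that of BMF. The level of BMF was 86.6 to 114% of that of BCL2L11 in control libraries and 218 to 250% of it with TGF-β1.

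PMAIP1, which encodes NOXA, a binder of MCL1, was the most abundant BH3-only transcript among the members. It stood at 16.5, 19.5 and 18.6 FPKM in control and 14.1, 15.9 and 19.6 FPKM in TGF-b1 libraries. The highest of all 6 values was in TGF-b1 3, and the groups overlapped (change -0.14, 95% interval -0.41 to 0.13, limma adjusted p = 0.47). That change ran from -0.040 without TGF-b1 1 to -0.26 without TGF-b1 3, and was -0.26 once the trend was taken out (adjusted p = 0.089). BIK, a BH3-only protein of the endoplasmic reticulum, was at 3.94, 6.17 and 5.08 FPKM in control and 2.79, 4.07 and 4.46 FPKM in TGF-b1 libraries. These rest on 57 to 133 fragments, the fewest of any member. Its groups overlapped too (change -0.35, 95% interval -0.72 to 0.033, limma adjusted p = 0.23), and the change was -0.19 without TGF-b1 1, -0.22 without control 2 and -0.13 once the trend was taken out.

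BBC3, which encodes PUMA, a p53 target, varied most among the controls relative to its mean. The controls gave 4.86, 4.20 and 1.92 FPKM and the TGF-b1 libraries 3.06, 2.39 and 1.66 FPKM. Control 3 lay below TGF-b1 1 and TGF-b1 2. At 69.7% GC, its transcript was the richest in GC of the 10 members. The change was -0.43 (SE 0.30, limma adjusted p = 0.40). Without control 3 it was -0.73 (adjusted p = 0.024), without control 1 -0.23, without TGF-b1 3 -0.27, and after removal of the trend on GC and length -0.066 (adjusted p = 0.84).

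Neither effector passed. BAX lies on the plus strand of chromosome 19 at 48954815 to 48961798 and BAK1 on the minus strand of chromosome 6 at 33572547 to 33580293. BAX, the effector that moves from the cytosol to mitochondria, was at 28.7, 32.2 and 23.6 FPKM in control and 24.4, 23.98 and 22.6 FPKM in TGF-b1 libraries. Control 3 fell among the TGF-b1 values. Its change was -0.23 (95% interval -0.49 to 0.023, limma adjusted p = 0.23), with control 3 left out -0.35 (adjusted p = 0.021), with control 2 left out -0.13 and after trend removal -0.018 (adjusted p = 0.88). BAK1, whose protein resides in the mitochondrial membrane, was at 27.7, 26.3 and 22.2 FPKM in control and 25.3, 22.1 and 26.7 FPKM in TGF-b1 libraries. The values of the groups interleaved. Its change was -0.035 (95% interval -0.28 to 0.21, adjusted p = 0.86), and it was above 0 under TPM scaling (0.042), under quantile normalization (0.011) and after trend removal (0.18).

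Among the pro-survival genes, BCL2L1 was lower in every TGF-b1 library without passing the test. It lies on the minus strand of chromosome 20 at 31664452 to 31723989. BCL2L1 stood at 71.9, 72.6 and 58.2 FPKM in control and 55.4, 49.0 and 44.5 FPKM in TGF-b1 libraries. Control 3 was the lowest control and TGF-b1 1 the highest treated library, and they were 58.2 and 55.4 FPKM. The means were 67.6 ± 8.12 and 49.6 ± 5.46 FPKM (SD, n = 3), a ratio of 0.734. The fitted change was -0.44 (SE 0.12, 95% interval -0.70 to -0.17, limma adjusted p = 0.079). The interval is for this gene alone, without adjustment. It passed without control 3 (change -0.54, adjusted p = 0.013), by voom (adjusted p = 0.018), at a minimum of 5 FPKM (adjusted p = 0.042) and over protein-coding genes alone (adjusted p = 0.035). After trend removal the change was -0.28 (adjusted p = 0.070). BCL2L1 did not pass with any library but control 3 left out (adjusted p of 0.057 to 0.30). It also did not pass with no filter on low genes (0.39) or without limma's trend and robust estimation (0.10). Median ratio, TPM and quantile scaling gave 0.072 to 0.094.

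MCL1, a short-lived protein that NOXA antagonises, had the tightest interval of the tested members. It lies on the minus strand of chromosome 1 at 150574551 to 150579738. It was at 59.2, 61.4 and 64.7 FPKM in control and 57.0, 61.5 and 65.0 FPKM in TGF-b1 libraries. The groups spanned nearly the same range (change -0.016, 95% interval -0.23 to 0.20, limma adjusted p = 0.93), and the change was above 0 under TPM scaling (0.063) and quantile normalization (0.084). BCL2, the founding member, on the minus strand of chromosome 18 at 63123346 to 63320128, was the lowest of the 10, at 0.509, 0.481 and 0.721 FPKM in control and 0.711, 0.819 and 0.820 FPKM in TGF-b1 libraries. Control 3 was above TGF-b1 1. BCL2 rests on 128 to 231 fragments and was not tested, and with no filter on low genes its adjusted p was 0.51.

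**Figure D2:**
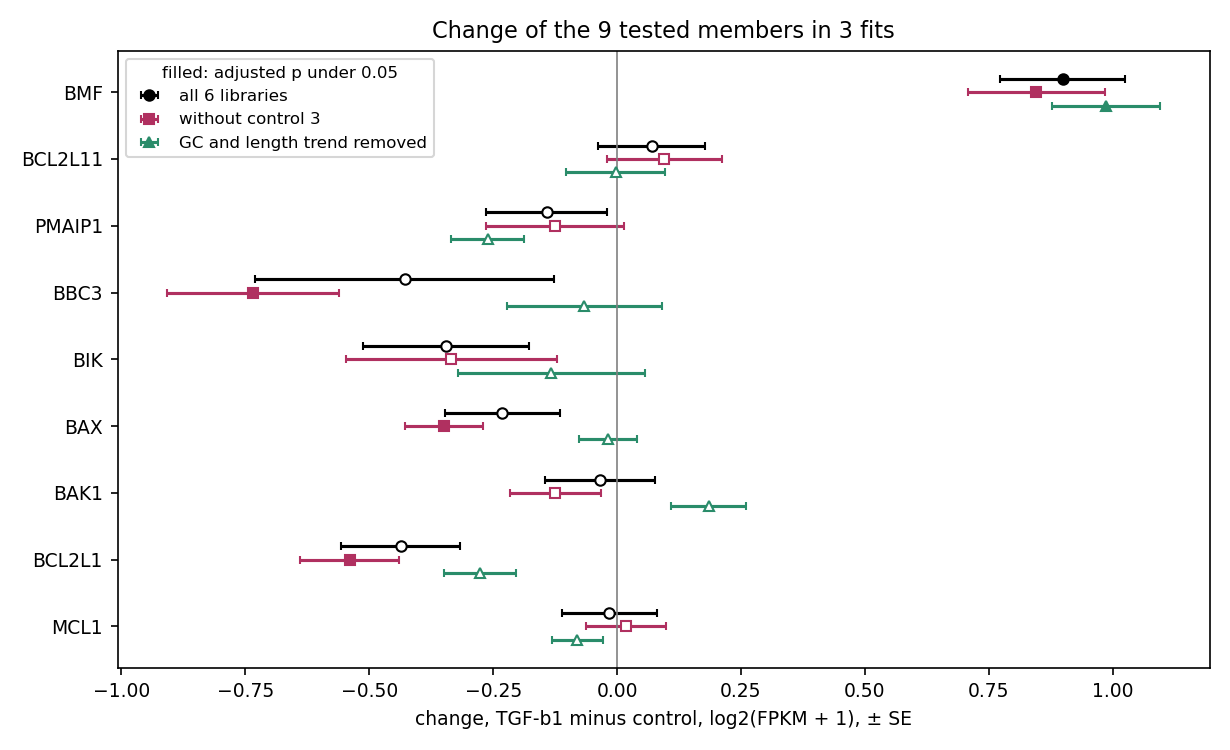
Change of the 9 tested members (TGF-b1 minus control, log2(FPKM + 1), horizontal axis) with its SE, in the fit of all 6 libraries (circles), without control 3 (squares) and after removal of the trend on GC and length (triangles). Filled symbols are past an adjusted p of 0.05: BMF is filled in all 3 fits, and BCL2L1, BAX and BBC3 only without control 3.

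The count of members called moved with several settings, and most on leaving out control 3. Without it 4 of 9 passed, BMF higher and BCL2L1, BAX and BBC3 lower, but so did 28.9% of all genes tested, 12.4% higher and 16.5% lower. After removal of the trend on GC and length 1 of 9 passed, again BMF, where 4.43% of all genes did. BMF and BCL2L1, 2 of 9, passed over protein-coding genes alone, where 8.42% of those genes did. At a minimum of 5 FPKM, which leaves out BMF, BCL2L1 was the 1 of 5 tested that passed, against 7.46%. BMF alone passed with a pseudocount of 0.1, under median ratio, TPM and quantile scaling, without limma's trend and robust estimation and without TGF-b1 1, against 2.36%, 2.68%, 3.16%, 3.04%, 1.8% and 2.9% of all genes. With no filter, where 0.053% of all genes passed, 0 of 10 members did by limma, with 2 at an unadjusted p under 0.05. The members called without control 3, namely BMF, BCL2L1, BAX and BBC3, have transcripts of 54.8, 56.9, 58.9 and 69.7% GC. Of those tested and not called, BIK and BAK1 are at 56.0 and 58.8% GC and PMAIP1, MCL1 and BCL2L11 at 37.2, 45.1 and 45.7%. No source used here gives the strand setting of the counting, and overlapping genes on opposite strands therefore cannot be told apart. BMF overlaps BMF-AS1, which had 0 fragments in every library. BCL2L1 overlaps ABALON, at 4.42 ± 1.41 and 3.93 ± 0.804 FPKM (limma adjusted p = 0.71), and BCL2L11 overlaps MIR4435-2HG, at 1.97 ± 0.145 and 2.14 ± 0.173 FPKM (adjusted p = 0.60).

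By level the members spanned MCL1 and BCL2L1, with means over all libraries of 61.5 and 58.6 FPKM, to BCL2 at 0.677 FPKM. In between came BAX and BAK1 at 25.9 and 25.1 FPKM, PMAIP1 at 17.4, BIK at 4.42, BBC3 at 3.01, BMF at 2.62 and BCL2L11 at 1.52 FPKM. Neighbours in this order whose ranges overlapped in both groups were BAX with BAK1 and BIK with BBC3. MCL1 and BCL2L1 overlapped in control and not in TGF-b1 libraries, where MCL1 was higher. BBC3 was above BMF in every control library and their ranges overlapped in TGF-b1 libraries, while BMF and BCL2L11 overlapped in control and BMF was higher in every TGF-b1 library.

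Summed over roles, the pro-survival genes gave 132, 135 and 124 FPKM in control 1 to 3 and 113, 111 and 110 FPKM in TGF-b1 1 to 3. Pro-survival genes held 61.0% ± 1.45 of the sum over the 10 members in control libraries and 59.4% ± 1.35 with TGF-β1 (SD, n = 3), a difference about the size of the SD. BH3-only genes made up 14.0% ± 0.760 and 14.9% ± 1.22, and the effectors 25.0% ± 1.64 and 25.8% ± 0.629. The BH3-only sum, in which BMF is a small term, was 29.9 ± 2.48 and 28.0 ± 2.60 FPKM. Relative to BCL2L1, BMF stood at 2.11 to 2.34% in control and 6.01 to 8.46% in TGF-b1 libraries, and BAX at 39.9 to 44.4% and 44.0 to 50.9%. These sums and ratios are descriptions, since the members were chosen with earlier results known.

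**Figure D3:**
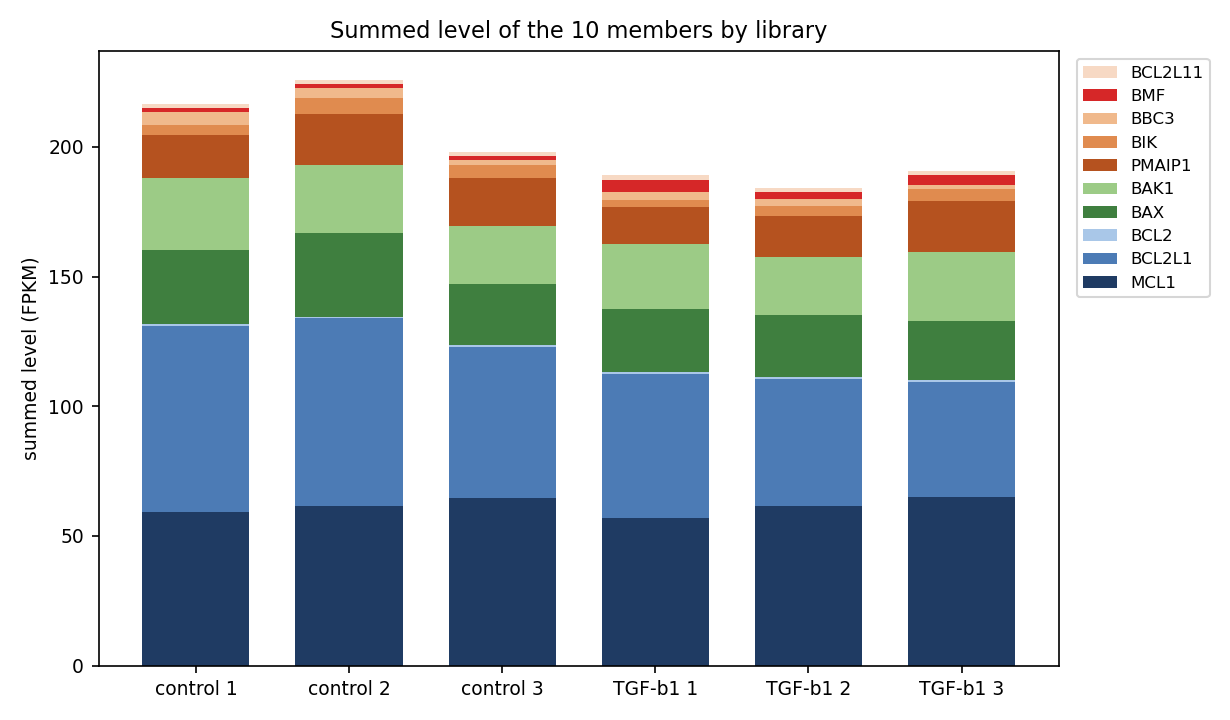
Summed level of the 10 members in each library (FPKM, bars from 0), with a colour for each gene: blues are pro-survival, greens effectors and oranges and red BH3-only. MCL1 and BCL2L1 fill most of every bar, and BMF (red) is a thin band that is wider in the 3 TGF-b1 libraries.

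Genes that act with the members were read in 5 lists, of which 81 genes are reported here and 71 were tested. Of these 0 rose and 2 fell (BCL2A1 and MYC), where 2.44% of all genes tested were called, with 18 at an unadjusted p under 0.05, against 25.1%, and 1 higher and 8 lower by voom, against 3.51% and 5.83%. With control 1, control 2 or TGF-b1 2 left out limma called 0 of the 71 (12, 12 and 11 at an unadjusted p under 0.05), where 1.09%, 1.55% and 1.34% of all genes were called. Leaving out TGF-b1 3 kept BCL2A1 alone, against 1.34% of all genes, and leaving out control 3 gave 27 calls, 12 of them higher and 15 lower, against 28.9%.

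Of 13 other BCL2 family genes, 9 were tested, and 0 rose and 1 fell, against 1.14% and 1.29% of all genes tested. The other four, BCL2L10, HRK, BCL2L14 and BCL2L15, reached at most 0.0897 FPKM in any library. BCL2A1, a pro-survival protein whose gene is a target of NF-κB, was at 1.35, 1.70 and 1.23 FPKM in control and 0.643, 0.421 and 0.735 FPKM in TGF-b1 libraries. All treated libraries were below all controls (ratio 0.419, change -0.60, SE 0.12, limma adjusted p = 0.027). Leaving out control 1, control 2 or TGF-b1 2 ended the call (adjusted p of 0.094 to 0.11), as did voom (0.052) and no filter (0.25). BCL2A1 rests on 11 to 42 fragments. Only its control libraries reached 1 FPKM, so it passed the filter through the group where it was high. Its call is therefore not independent of the filter. BAD, a BH3-only protein regulated by phosphorylation, was at 33.6 ± 8.28 and 22.7 ± 3.21 FPKM (adjusted p = 0.14), with control 3 at 24.1 FPKM among the treated values. BNIP3, a mitophagy receptor, stood at 22.1 ± 1.62 and 16.3 ± 1.48 FPKM (adjusted p = 0.056), and BOK, a relative of BAX, at 46.4 ± 7.32 and 38.4 ± 3.70 FPKM (adjusted p = 0.23). BNIP3 passed in 7 of the 17 alternatives to this fit, trend removal among them (adjusted p = 0.034). BAD and BOK, at 66.3 and 66.0% GC, passed without control 3 (adjusted p = 0.0086 and 0.023), and BAD by voom (0.044). After trend removal their changes of -0.52 and -0.26 became -0.17 and 0.064. The list median was -0.23, and -0.11 after trend removal.

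Binding partners and regulators of stability gave no calls: 0 of 10 tested (of 11) by limma, 1 of 10 at an unadjusted p under 0.05 and 0 by voom. The shares of all genes tested were 2.44%, 25.1% and 9.33%. The dynein light chains that tether BIM and BMF were among them, DYNLL1 at 81.8 ± 8.77 and 79.7 ± 10.3 FPKM (limma adjusted p = 0.86) and DYNLL2 at 7.35 ± 0.330 and 6.92 ± 0.0520 FPKM (adjusted p = 0.58); both fall outside the naming rule and were chosen after their values were seen. USP9X, a deubiquitinase of MCL1, was at 7.87 ± 1.68 and 9.94 ± 0.457 FPKM (adjusted p = 0.16), and HUWE1, a ubiquitin ligase of MCL1, at 15.5 ± 2.86 and 18.3 ± 0.779 FPKM (adjusted p = 0.24). MYO5A, a myosin motor, stood at 4.07 and 5.14 FPKM and VDAC2, an outer membrane channel that binds BAK, at 89.8 and 97.3 FPKM. The list median was 0.050.

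In the caspase cascade and its inhibitors, 0 of the 18 genes reported here passed by limma, where 2.44% of all genes tested did. At an unadjusted p under 0.05 there were 5, against 25.1% of all genes, and 1 was lower by voom (ENDOG), against 5.83%. CASP9, the initiator caspase of this route, stood at 6.31 ± 0.515 and 4.85 ± 0.153 FPKM (limma adjusted p = 0.085) and ENDOG, a mitochondrial nuclease, at 23.7 ± 3.30 and 17.5 ± 1.11 FPKM (adjusted p = 0.079). For ENDOG, at 67.7% GC, trend removal took the change from -0.41 to -0.016 (adjusted p = 0.94). BIRC6, a large inhibitor of apoptosis protein, was at 2.41 ± 0.606 and 3.21 ± 0.299 FPKM (adjusted p = 0.17). APAF1, the scaffold on which the initiator caspase is activated, was at 3.93 ± 0.76 and 4.95 ± 0.277 FPKM (adjusted p = 0.17). The list median was -0.010.

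Transcription factors known to act on members showed 0 of 17 tested genes higher and 1 lower, out of 19 listed. Of all genes tested 1.14% were called higher and 1.29% lower. At an unadjusted p under 0.05 there were 5, against 25.1% of all genes. By voom 1 was higher (RUNX1), against 3.51%, and 2 were lower (JUN and MYC), against 5.83%. MYC fell from 33.7 ± 1.69 to 25.3 ± 1.58 FPKM (limma adjusted p = 0.049). That call was lost on leaving out any library but control 3 (adjusted p 0.079 to 0.18) and under 6 of the other 11 alternatives: a pseudocount of 0.1 (0.051), no filter (0.25), TPM scaling (0.079), quantile normalization (0.056), no trend or robust estimation (0.066) and trend removal (0.054). JUN, an AP-1 subunit, stood at 76.3 ± 4.21 and 59.9 ± 7.69 FPKM (adjusted p = 0.11), RUNX1, a partner of SMADs, at 1.71 ± 0.123 and 2.43 ± 0.189 FPKM (adjusted p = 0.084) and DDIT3, a stress factor, at 2.50 ± 0.600 and 1.75 ± 0.287 FPKM (adjusted p = 0.16). RUNX1 passed in 3 of the 16 alternatives that tested it and JUN in 2 of 17. Both passed by voom (adjusted p = 0.014 and 0.039) and by limma without control 3 (0.032 and 0.036). The list median was 0.023.

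Among 20 p53 targets outside the family 17 were tested and 0 passed by limma, where 2.44% of all genes tested did. At an unadjusted p under 0.05 there were 4, against 25.1% of all genes, and 3 were lower by voom, against 5.83%. The genes with the largest changes were GDF15, a stress cytokine, at 97.9 ± 16.6 and 66.6 ± 7.27 FPKM (adjusted p = 0.061), FDXR, a mitochondrial reductase, at 20.8 ± 3.75 and 13.9 ± 1.20 FPKM (adjusted p = 0.056) and TP53I3, an oxidoreductase, at 7.96 ± 1.28 and 5.24 ± 0.743 FPKM (adjusted p = 0.057). Of the 17 alternatives to this fit, FDXR passed in 9, GDF15 in 7 and TP53I3 in 6. POLH, a translesion polymerase, was at 8.47 ± 0.371 and 10.0 ± 0.652 FPKM (adjusted p = 0.17). Removal of the trend on GC and length took the change of GDF15 from -0.54 to -0.25 and of FDXR from -0.54 to -0.30. It took TP53I3 from -0.52 to -0.31 and POLH from 0.22 to 0.20. The list median was -0.073, and -0.034 after trend removal. The members BBC3, BAX and PMAIP1, p53 targets too, had changes of -0.43, -0.23 and -0.14. After trend removal these were -0.066, -0.018 and -0.26.

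**Figure D4:**
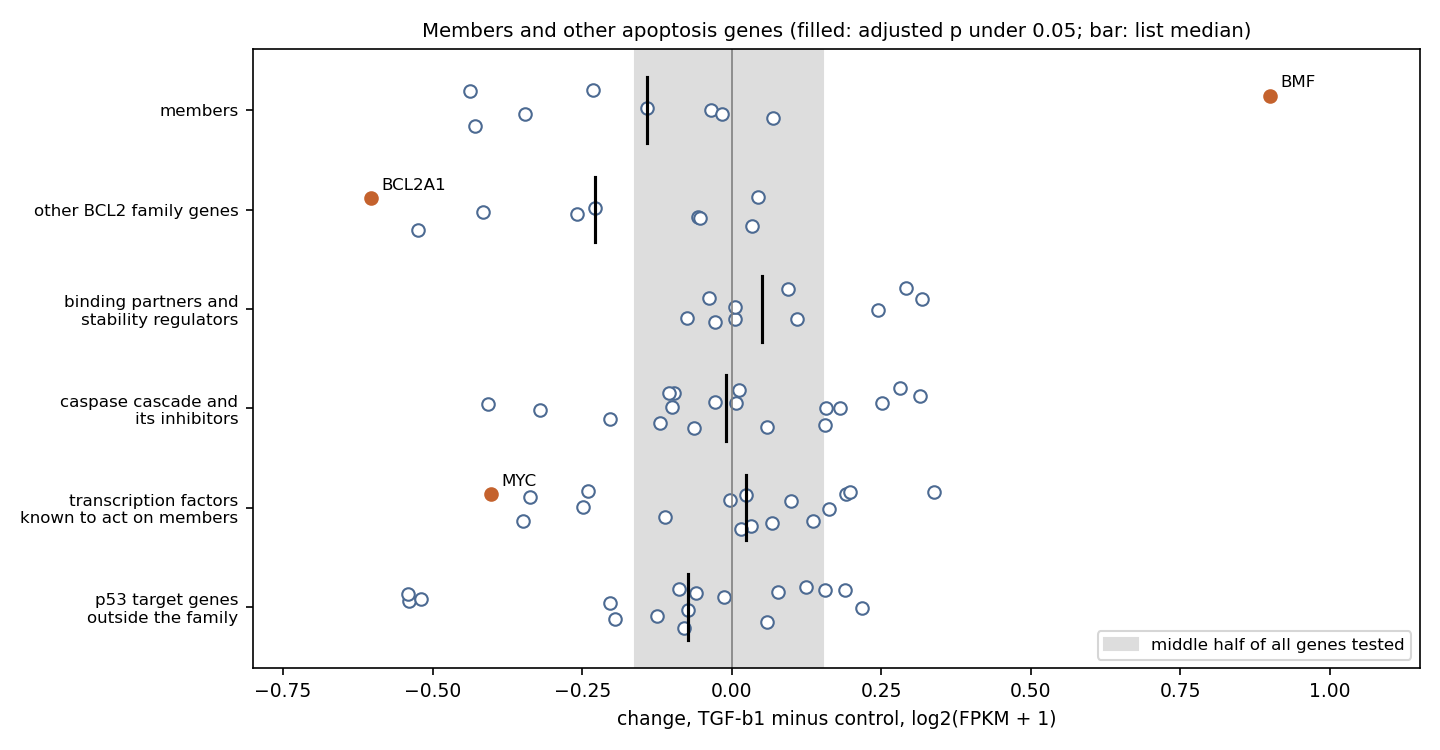
Change of each tested gene (TGF-b1 minus control, log2(FPKM + 1), horizontal axis) among the members and in 5 lists of genes that act with them. Filled orange points are past an adjusted p of 0.05, black bars are list medians and the grey band runs between the quartiles of all genes tested, -0.16 to 0.15; BMF at 0.90 is the point farthest from 0.

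The genes whose profile over the 6 libraries was most like that of BMF were found by the root mean square difference of log2(FPKM + 1), each gene centred on its control mean, among 9958 other protein-coding genes with a mean of at least 1 FPKM. They were ITGA11, an integrin that binds collagen, at a difference of 0.045, SIK1B, a kinase nearly identical to SIK1, at 0.089, PIK3IP1, an inhibitor of PI3 kinase, at 0.095, ADGRG1, an adhesion receptor, at 0.110, and COL1A1, a fibrillar collagen chain, at 0.115. ITGA11 stood at 0.720, 0.732 and 0.617 FPKM in control and 2.58, 1.76 and 2.17 FPKM in TGF-b1 libraries. Its treated libraries order as those of BMF, which follows from how it was picked. ITGA11 and COL1A1, with control means of 0.690 and 0.633 FPKM, reached the mean of 1 FPKM only through the TGF-b1 libraries. Their ratios to control were 3.15 and 3.38, against 2.46 for BMF, so likeness on log2(FPKM + 1) was not likeness in ratio. Reads of SIK1B may be split with its copy, and its level is uncertain.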

How the data were processed

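Total RNA was sequenced as 150 bp read pairs in 6 libraries, 3 control and 3 TGF-b1, grouped by their titles. The tools named per the submitters' processing notes are HISAT2 2.0.5, a read aligner, and featureCounts 1.5.0-p3, a read counter, and the build is hg38; no source used here gives the annotation release or strand setting. The deposited values are FPKM made by the authors, per the file headers, in 1 table of 6 columns; 6 files of 1 column held the same values. The first 11 rows are mapping totals and were left out. Exon lengths, GC content of the longest transcript and coordinates came from GENCODE release 29 on GRCh38, matched by symbol for 56923 of 58735 rows. FPKM times length gave whole fragments, to within 0.05, for 126560 of 126561 values above 0, which gives the depths.

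limma 3.58.1 in R 4.3.3, fitted robustly and with a trend of variance on level, was run on log2(FPKM + 1) over genes reaching 1 FPKM in 3 or more libraries; every adjusted p printed is from this fit unless another setting is named. The script was tested on simulated data. No 2 libraries of a group were duplicates (chi-square of fragments per degree of freedom 7.61 to 36.3). The 17 alternatives were a pseudocount of 0.1, other filters and scalings, limma without trend and robust fitting, a block for the replicate number, leaving out 1 library at a time, voom on recovered fragments, removal of a loess trend on GC and length, and protein-coding genes only. DIABLO, with 2 rows, was left out. Named are the 10 members, up to 4 genes of each other list (called genes, then by size of change), 5 genes most like BMF and 3 TGF-β targets; 2 other list genes are not reported here and are in no list count. The members and lists were chosen with earlier results of these data known.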

Additional observations from a re-analysis of the deposited data

How the results depend on the processing

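The BMF call held in 15 of the 16 alternatives that tested it and was lost with no filter on low genes. Its change was 0.79 to 1.02 on log2(FPKM + 1). On other scales it was 1.23 (pseudocount of 0.1) and 1.28 (voom). The number of genes called, 277 of all tested, was 15 with no filter, 500 at a minimum of 5 FPKM, 1054 by voom, 500 after removal of the GC and length trend and 842 over protein-coding genes, and 124 to 3280 on leaving out a library. Calls were 130 higher and 147 lower, against 205 and 154 under TPM scaling, 294 and 206 with the trend removed, 179 and 321 at a minimum of 5 FPKM and 295 and 547 over protein-coding genes. Members called were 1, and 0 with no filter by limma (2 at an unadjusted p under 0.05), 2 by voom, 2 over protein-coding genes and 1 to 4 on leaving out a library. List genes called were 2, and 1 with a pseudocount of 0.1, 0 with no filter (14 at an unadjusted p under 0.05), 6 at a minimum of 5 FPKM, 4 under median ratio scaling, 1 without trend or robust estimation, 9 by voom, 5 with the trend removed, 9 over protein-coding genes and 0 to 27 on leaving out a library. With the replicate number as a block 767 genes, 2 members (BMF and, at an adjusted p of 0.034, BCL2L1) and 7 list genes passed. Same-numbered deviations correlated across genes at 0.25, -0.071 and 0.17. Control 1 and control 3 were best with their own number and control 2 was not. So few libraries cannot settle whether the numbers pair them.

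Changes of 3 members turned sign. BCL2L11 was at -0.0028 with the trend removed and at -0.014 (TGF-b1 1 left out) to 0.13 on leaving out a library. BAK1 was at 0.042 under TPM scaling, 0.011 under quantile normalization and 0.18 with the trend removed, and at -0.12 to 0.039 on leaving out a library, above 0 for control 1 and TGF-b1 2. MCL1 was at 0.063 and 0.084 under the same scalings and at -0.060 to 0.033 on leaving out a library, above 0 for control 3 and TGF-b1 1. BOK went from -0.26 to 0.064 with the trend removed. The cause was not tested. The TPM ratio of BAX was 0.894 against 0.840 in FPKM. With the other family genes of the same roles counted in, pro-survival, effector and BH3-only shares were 43.4, 31.6 and 25.0% in control and 43.5, 32.1 and 24.3% in TGF-b1 libraries. Depth limits BIK most among the members, at 57 to 133 fragments a library, and BCL2A1 among the other apoptosis genes named, at 11 to 42.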
